A study of Danio rerio with 24 samples.

Results

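Laminins are the trimeric proteins of basement membranes, built from an alpha, a beta and a gamma chain, and integrins are cell surface receptors built from an alpha and a beta chain, many of which bind laminins or other matrix proteins. The 48 genes described here are every row of the tumor count table whose gene name starts with the letters of a laminin chain gene (lama, lamb or lamc with a number) or of an integrin subunit gene (itga or itgb), out of 32266 rows, 28548 of which had a read in at least 1 library. They comprised 13 laminin genes (5 alpha, 5 beta and 3 gamma) and 33 integrin genes (21 alpha and 12 beta). The remaining 2 genes, itgb1bp1 and ITGB1BP2, encode proteins that bind an integrin tail and are no receptor chains, and itgbl1, counted with the beta genes by its name, encodes a secreted protein that resembles a beta chain.

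The tumors were brain tumors of 10 adult zebrafish of the WIK strain carrying TALEN-induced somatic lesions of rb1, the retinoblastoma gene (TALENs are nucleases built to cleave a chosen sequence). The paper describes such fish as mosaics, so a tumor sample could hold cells with and without rb1 lesions, in shares that are not given. The controls were 2 pools of 3 brains of wild type WIK siblings, labelled as midbrain-hindbrain, and both groups were 6.5 to 10 months old by the labels. RNA came from dissected tissue of a single side of the brain, the other side having gone to histology in the tumor fish, and each of the 12 RNA samples gave 2 libraries, a and b, from separate lanes, which were summed.

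In the vessels and at the surface of the brain, laminins form the sheet on which endothelial cells and the endfeet of glia rest, and they bind integrins with a beta 1 or beta 4 chain and the dystroglycan complex. Integrins with a beta 2 or beta 7 chain are known from white blood cells, those with alpha 4 bind vascular cell adhesion molecule and fibronectin, and those with alpha v bind ligands with an RGD motif, among them the latent form of TGF-beta. Because the samples are bulk tissue, fewer cells of a type and less RNA per cell cannot be told apart in any value given here.

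Library totals summed to 18.5 to 25 M reads per tumor, and to 19.8 and 21 M for the pools. Control libraries of the same letter agreed within sampling noise across the pools (1a with 2a, 1b with 2b), whereas the 4 control pairs of different letter differed by 3.25 to 3.42 times the sampling variance, so the labelled pools differed by no more than sampling noise and their spread understates that between controls. The level of rb1 was 18.8 CPM in the lowest tumor, 29.3 at the median and 101 in the highest, against 13.1 and 14.6 in the pools, a level that does not check the labels since a small lesion need not lower the RNA. CPM here means the count per M reads of the library after TMM scaling. Summed markers of mature neurons were at 1476 to 4362 CPM in the tumors and at 15741 and 15708 in the pools, and those of oligodendrocyte precursors were at 2621 to 4245 CPM against 163 and 154, where 5 of the 8 genes were higher and 3, cspg4, pdgfra and olig1, were lower.

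Of the 44 genes with enough reads for a test, 12 were higher and 10 were lower in the tumors, and 22 were not called. A gene was called when the edgeR quasi-likelihood test gave a p adjusted over all 20957 genes tested of at most 0.01 and the change was at least 1.5-fold, and every adjusted p below is from that test unless another is named. Across all genes tested 22.8% were called higher and 24.9% lower, 47.7% in either direction, so the members were called about as often as genes in general. The median log2 fold change was -0.01 over the 44 members and 0.09 over all genes. Of 12 laminin genes tested 1 was higher and 2 were lower, and of 30 integrin genes 10 were higher and 7 lower. Limma with voom called 2 laminin genes higher and 5 lower, and 10 integrin genes in each direction. It also called more of all 20957 genes, 6265 higher and 6815 lower, against 4779 and 5221 in edgeR. A difference between the families was not tested.

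Fewer genes were called when a control pool was left out, a fit that leaves 1 control sample. The log2 fold change of itga1 was 1.28 without control pool 1 and 1.32 without control pool 2, against 1.30 with both. That of itgb2 was 3.82 and 3.81 against 3.82, while that of itga2.2, a low gene, moved more, to 2.90 and 2.02 from 2.40. Since the labelled pools differed by no more than sampling noise, these fits cannot tell whether a call depended on a particular pool. The genes called in each of the 13 other settings with all samples were lama1 and lamb2l among the laminins. Among the integrins they were itga1, itga4, itgae.1, itgb1a, itgb2, itgb7, itga6a, itga6b, itga8, itgb5, itgb8 and itgbl1. With the control libraries summed by letter, 1 laminin gene was higher and 2 were lower, and 9 integrin genes were higher and 7 lower, where 22.3% of all genes were higher and 25.1% lower. The letter sums of the control libraries differed by a ratio of 1.01 to 1.38 (median 1.07) in the 17 members with a tumor mean of at least 10 CPM, the highest being that of itgb1a.

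**Figure D1:**
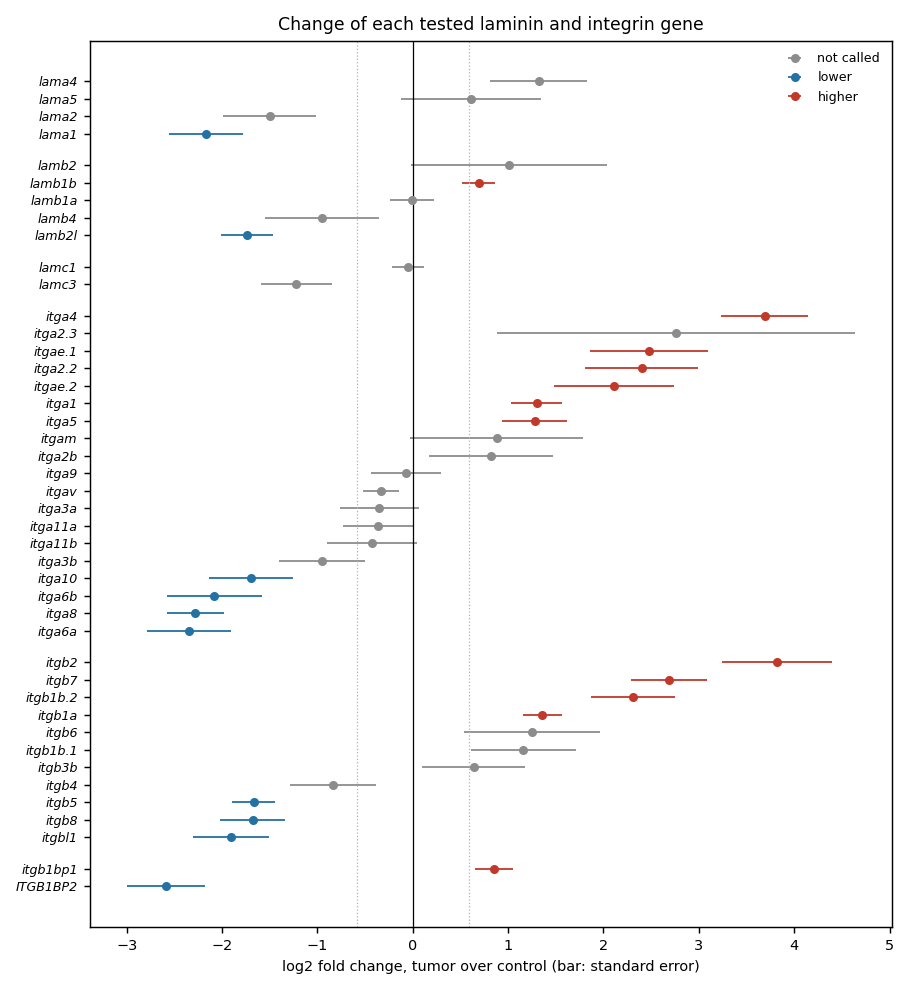
Log2 fold change of tumors over controls for 43 of the 44 tested genes, grouped by chain class, with the standard error as a bar and dotted lines at 1.5-fold. The 12 red points are genes called higher and the 10 blue points genes called lower; itgb2 at 3.82 and itga4 at 3.69 lie farthest to the right and ITGB1BP2 at -2.59 farthest to the left.

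Among the laminin alpha genes, lama1 was lower and no gene was called higher. lama1 encodes the alpha 1 chain, an early embryonic laminin chain that in zebrafish is the bashful gene. It stood at 2.18 CPM in the lowest tumor, 6.53 at the median and 12.8 in the highest, against 29.4 and 31.3 in the pools. No tumor overlapped the controls, and lama1 fell by 2.17 on the log2 scale (SE 0.39, adjusted p = 0.000374). Genes with all tumors below both pools made up 32.8% of all genes tested and genes with all tumors above both 31.5%, and among the 44 members there were 12 of each.

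lama4, the alpha 4 chain of vascular basement membranes, was the alpha gene with the highest FPKM in both groups, at 16.1 ± 7.86 in the tumors (SD, n = 10) and 6.84 in the controls. FPKM is the count divided by gene length and library total, and it is the only scale on which levels of different genes are set side by side here. The lama4 level was 40.1 CPM in tumor 3, the lowest, 91.7 at the median and 200 in tumor 8, the highest, against 40.8 and 40.3 in the pools. Thus 9 of 10 tumors lay above both pools and tumor 3 lay just below them. The log2 change of 1.32 (SE 0.51) missed the threshold (adjusted p = 0.0364).

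lama5 encodes the alpha 5 chain, which is present in vascular and epithelial basement membranes. It ran from 9.98 CPM in tumor 6 through a median of 26 to 90.8 in tumor 8, against 21.8 and 21.1 in the pools, so 5 tumors were above both pools and 5 below. The log2 change was 0.61 (SE 0.73, adjusted p = 0.48). lama2, the alpha 2 chain known from muscle and from vessels and glial endfeet, was lower in every tumor, at 0.386 to 1.8 CPM against 3.04 and 1.99, but the log2 change of -1.50 (SE 0.49) was not called (adjusted p = 0.0178), and its gene model is only 2535 bp long. lama3 was at 0 to 0.248 CPM in the tumors and at 0.386 and 0.226 in the pools and was too low for a test.

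In a count of 0 alpha genes called higher by edgeR, 1 was higher at an unadjusted p under 0.05, DESeq2 called 0 and limma with voom 1. Of the summed alpha chain FPKM, lama4 made up 62% in the lowest tumor, 79.3% at the median and 89.5% in the highest, and 51.2% and 52.2% in the pools. The share of lama1 was 1.42%, 3.35% and 14.8% in the same order and 23.9% and 26.3% in the pools. The composition of the alpha class therefore separated the groups for both genes, whereas the summed alpha FPKM, at 9.13 to 38.7 in the tumors and 13.4 and 13 in the pools, did not.

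**Figure D2:**
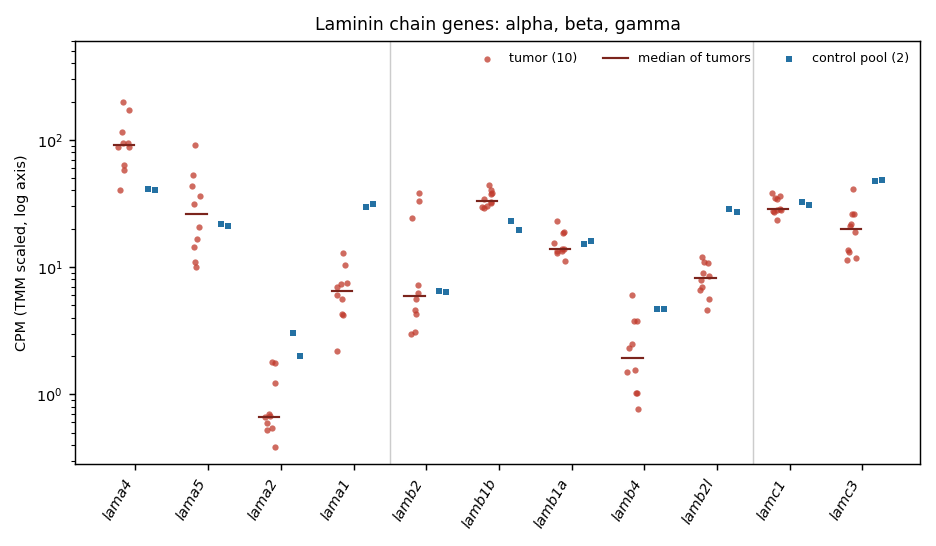
CPM of 11 tested laminin genes on a log axis, ordered within the alpha, beta and gamma classes by fold change, with each tumor as a red point, the tumor median as a bar and the control pools as blue squares. All tumors lie below both pools for lama1, lama2, lamb2l and lamc3 and above both for lamb1b, while lama5 and lamb2 spread to both sides.

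The beta chain genes split by paralog, with lamb1b higher and lamb2l lower. lamb1b, one of the zebrafish beta 1 genes, was at 28.9 CPM in the lowest tumor, 33.3 at the median and 44.2 in the highest, against 23.2 and 19.7 in the pools. All 10 tumors were above both pools by a small margin, with a 1.62-fold difference (log2 0.69, SE 0.17, adjusted p = 0.00318). Its log2 fold change was 0.81 without control pool 1 and 0.58 without control pool 2. Its paralog lamb1a, the grumpy gene of zebrafish, ran from 11.2 to 23 CPM with a median of 13.8 against 15.1 and 16, and its log2 change was -0.01 (SE 0.23, adjusted p = 0.96), a value whose sign changed with the processing.

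lamb2l, which resembles the beta 2 chain gene, was at 4.56 CPM in the lowest tumor, 8.25 at the median and 12 in the highest, against 28.4 and 27 in the pools. It fell by 1.74 on the log2 scale (SE 0.27, adjusted p = 0.000108), and no tumor overlapped the controls. lamb2, its neighbour with 0 protein-coding genes between them in the RefSeq order of the GRCz12tu assembly, behaved otherwise: tumors 2, 4 and 5 were at 33.2, 24.1 and 38.2 CPM, the other tumors at 3 to 7.23, and the pools at 6.47 and 6.39. Its log2 fold change of 1.01 had an SE of 1.03 (adjusted p = 0.407). lamb4 was at 0.76 to 6.08 CPM against 4.64 and 4.71, with 9 of 10 tumors below both pools (log2 fold change -0.95, SE 0.60, adjusted p = 0.186).

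On the FPKM scale lamb1b held 33.8% to 60.7% of the beta chain sum in the tumors, with a median of 54.5%, and 32.9% and 29.6% in the pools. The share of lamb2l was 4.68% to 15.3% (median 9.81%) against 31.9% and 32%. In the controls these genes were level with each other, at 4 FPKM for lamb1b and 4.08 for lamb2l, and in the tumors lamb1b was at 6.11 ± 0.8 (SD, n = 10) and lamb2l at 1.17 ± 0.385.

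Of the gamma chain genes, lamc3 missed the threshold narrowly and lamc1 was near the level of the controls. lamc3, the gamma 3 chain, was at 11.3 CPM in the lowest tumor, 20 at the median and 41.1 in tumor 1, against 47.4 and 48.2. All 10 tumors were below both pools, with a log2 change of -1.22 (SE 0.37, adjusted p = 0.0119). It stayed uncalled in 5 of 13 other settings with all 12 samples and was called lower in the other 8, DESeq2 and limma with voom among them. Without tumor 1 it was -1.40 with adjusted p = 0.0012, and 4 laminin genes instead of 2 were then lower.

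lamc1, the gamma 1 chain of most laminins and the sleepy gene of zebrafish, was at 23.4 to 37.9 CPM with a median of 28.5, against 32.6 and 31. The log2 change was -0.05 (SE 0.17, adjusted p = 0.787), and its sign changed with the processing. The lamc1 share of gamma FPKM was 40% to 70% in the tumors (median 52.2%) and 34.7% and 33.1% in the pools, and the summed gamma FPKM was 6.36 to 13.8 against 16.1 and 16.

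**Figure D3:**
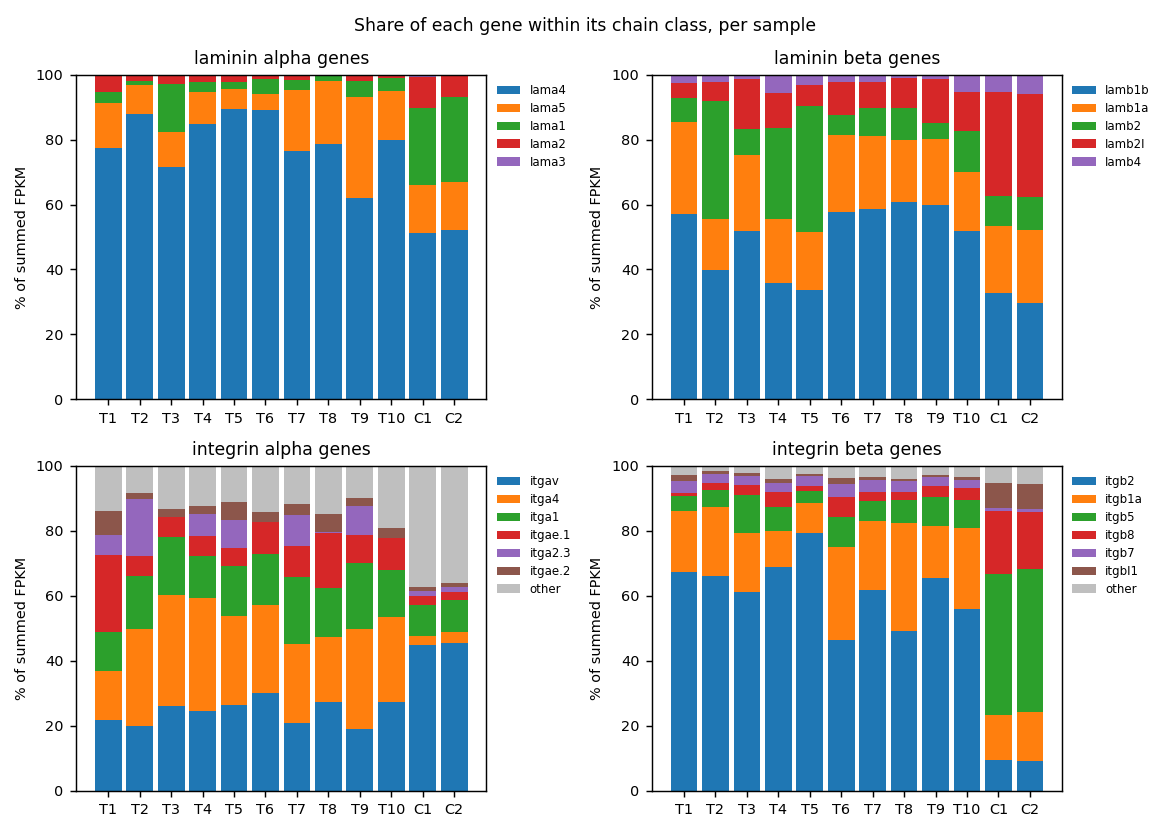
Share of each gene in the summed FPKM of its chain class, in percent, for tumors T1 to T10 and control pools C1 and C2, counting only genes that met the name rule. The lama1, lamb2l and itgav shares are larger in both pools than in any tumor, and among the integrin beta genes itgb2 takes 46.4% to 79.4% in the tumors where itgb5 takes 43.3% and 44.3% in the pools.

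Vascular and meningeal cells are known sources of several laminins, and their summed markers are given for comparison. Endothelial markers summed to 305 CPM in the lowest tumor, 398 at the median and 518 in the highest, against 328 and 326, with 3 of 21 tested markers higher and 2 lower. Mural cell and pericyte markers summed to 163 to 278 CPM (median 199) against 297 and 290, with 0 of 14 higher by edgeR (2 at an unadjusted p under 0.05, 0 by DESeq2 and 2 by limma with voom) and 3 lower. Meningeal and fibroblast markers summed to 132 to 286 CPM against 254 and 258, with 3 of 15 higher and 3 lower. The relations of lama4, lama5, lamb1a, lamb1b, lamb2, lamc1 and lamc3 to these sums across the tumors are among those computed below, where that of lamb1b to the endothelial sum passed an adjusted p of 0.05. Their part in the difference between tumors and controls was not tested.

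Of the integrin genes known from white blood cells, itgb2, itga4, itgb7, itgae.1 and itgae.2 were higher and itgam was not called. itgb2, the beta 2 chain that pairs with the leukocyte alpha chains, was at 92 CPM in tumor 6, the lowest, 186 at the median and 406 in tumor 5, the highest, against 14.2 and 14.1 in the pools. The lowest tumor was thus far above both pools, and itgb2 was 14.1-fold higher (log2 3.82, SE 0.58, adjusted p = 9.41e-05). In FPKM it was the highest integrin gene of the tumors, at 56.7 ± 27 (SD, n = 10) against 4.25 in the controls. Of the summed FPKM of the beta genes that met the name rule, it made up 46.4% to 79.4% in the tumors (median 63.7%) and 9.43% and 9.03% in the pools.

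itga4, the alpha 4 chain, was at 35.4 CPM in tumor 8, 59.4 at the median and 109 in tumor 4, against 4.54 and 5.21. It was 12.9-fold higher (log2 3.69, SE 0.46, adjusted p = 2.31e-05), and all tumors lay above both pools. Its partner itgb7 was lower in level but also rose, from 1.06 and 1.31 CPM in the pools to 4.34 in the lowest tumor, 6.64 at the median and 12.1 in the highest (log2 fold change 2.69, SE 0.40, adjusted p = 8.19e-05). Without control pool 1 or 2 the log2 fold change was 3.82 or 3.81 for itgb2, 3.59 or 3.79 for itga4 and 2.55 or 2.85 for itgb7. itga4 was the highest alpha gene of the tumors, at 18.6 ± 7.25 FPKM, within the spread of itgav at 16.2 ± 3.67 (SD, n = 10 each).

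The other beta 7 partner in mammals, alpha E of tissue lymphocytes, has several zebrafish copies. itgae.1 was at 8.96 CPM in tumor 3, 13.9 at the median and 50 in tumor 1, against 3.38 and 3.03 (log2 fold change 2.48, SE 0.62, adjusted p = 0.00376). itgae.2, with 1 protein-coding gene between it and itgae.1 in the RefSeq order, was at 6.75 CPM in tumor 3, 9.29 at the median and 28.8 in tumor 1, against 2.61 and 3.03. All tumors were above both pools for both genes. Without control pool 1 or 2 the log2 fold change of itgae.1 was 2.56 or 2.40. The itgae.2 call (log2 fold change 2.11, SE 0.63, adjusted p = 0.00998) sat at the threshold, and it was kept in 5 of 13 other settings with all 12 samples and lost in 7 of 12 fits that left a sample out.

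itgam, named for the alpha M chain of myeloid cells, was low, at 0.394 to 4.84 CPM with a median of 0.887 against 0.676 and 0.634, and was not called (log2 fold change 0.88, SE 0.91, adjusted p = 0.41). A row outside the rule that the reference names itgam.1 (si:dkey-32n7.4) was at 16.8 to 81.1 CPM against 9.13 and 10.1, above both pools in all 10 tumors but not called (log2 fold change 1.99, SE 0.63, adjusted p = 0.0143). Reads were kept only where they mapped uniquely, as stated for the larval libraries of the study, so the split of reads between copies such as itgae.1 and itgae.2 would be uncertain where their sequences are alike, which was not examined here.

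Summed leukocyte, microglia and T cell markers were above both pools in all 10 tumors, though fewer than all of their genes were called. The summed pan-leukocyte markers, which include no integrin, were at 152 CPM in tumor 3, 287 at the median and 767 in tumor 1, against 121 and 120, with 4 of 9 genes higher. Of the level in the pools, arhgdig alone supplied 65.7 and 60.6 CPM, and it was not called (log2 fold change 0.15, SE 0.47, adjusted p = 0.793). The other genes of that list had log2 fold changes of 1.49 to 2.90, and a sum without arhgdig was not computed. Microglia and macrophage markers summed to 2339 to 5634 CPM (median 3330) against 700 and 697, with 14 of 26 tested rows higher, and T and NK cell markers to 15.1 to 152 CPM against 6.18 and 7.11, with 1 of 10 higher. Tumor 1 was the highest and tumor 3 the lowest in all 3 sums. Neutrophil markers did not follow: they summed to 10.1 to 50.3 CPM (median 15) against 16.1 and 16.7, with 4 tumors above both pools and 5 below, 1 of 6 genes lower (npsn, log2 fold change -1.95) and 0 higher by edgeR (1 at an unadjusted p under 0.05, 0 by DESeq2 and 1 by limma with voom).

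Across the 10 tumors the 17 members with a tumor mean of at least 10 CPM were set against 4 marker sums on the log2 scale, which makes 68 relations. Of these, 2 passed an adjusted p of 0.05. itgae.2 followed the pan-leukocyte sum, with Pearson's r = 0.96 (permutation p = 1e-05, the smallest that the permutations can give, adjusted p = 0.00068) and Spearman's rho = 0.98 (permutation p = 2e-05, adjusted p = 0.0014), and r = 0.89 without the 2 tumors farthest from the median sum. lamb1b followed the endothelial sum, with r = 0.87 (permutation p = 0.00059, adjusted p = 0.02), rho = 0.84 (permutation p = 0.0033, adjusted p = 0.074) and r = 0.77 without the 2 farthest tumors. Within the endothelial list mrc1a had the widest range, 13.1 to 142 CPM in the tumors, and a sum without it was not computed. With the other sum the values were near: lamb1b had r = 0.78 with the pan-leukocyte sum (permutation p = 0.0076, adjusted p = 0.086). itgae.2 had r = 0.81 with the endothelial sum (permutation p = 0.0038, adjusted p = 0.086). Tumor 1 was the highest in both sums, and their parts were not separated, so neither gene is tied to a single marker list. For itgb2 and the pan-leukocyte sum r was 0.59 (permutation p = 0.075, adjusted p = 0.25), rho 0.64 (permutation p = 0.055, adjusted p = 0.34) and r without the 2 farthest tumors 0.28, and for itga4 r was -0.07 (permutation p = 0.85, adjusted p = 0.93), rho -0.07 (permutation p = 0.87, adjusted p = 0.95) and r without them 0.07. Every tumor had a library in each lane, and no relation could be computed within the 2 control pools.

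**Figure D4:**
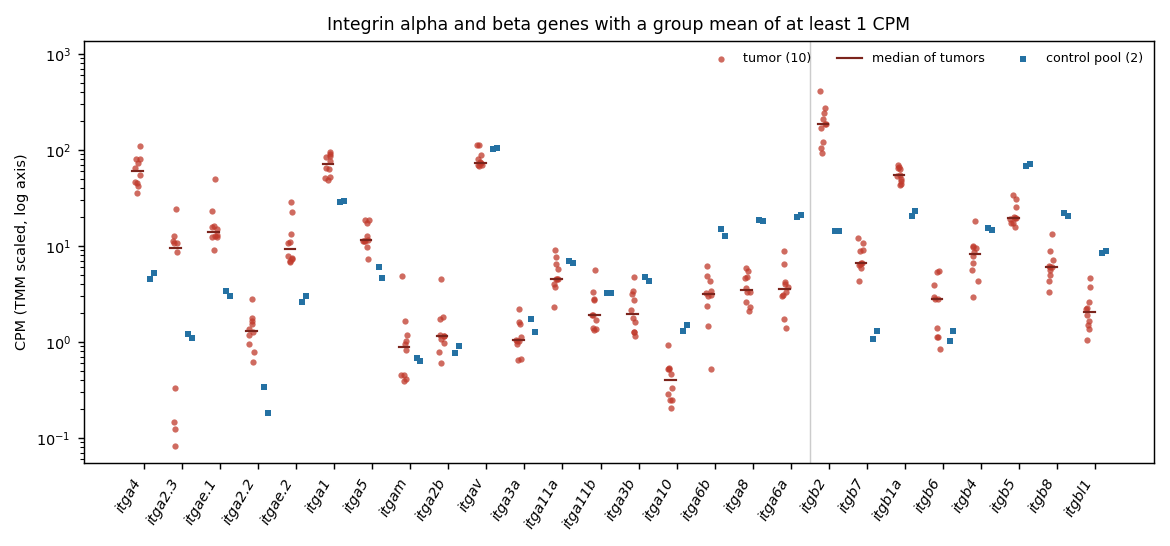
CPM on a log axis of the tested integrin genes with a group mean of at least 1 CPM, alpha genes left and beta genes right of the line, ordered by fold change, with each tumor as a red point, the tumor median as a bar and the control pools as blue squares. itga4, itgb2 and itgb7 lie above both pools in all tumors and itga6a, itga6b, itga8, itgb5 and itgb8 below, and itga2.3 splits the tumors.

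The beta 1 chain, the shared partner of the collagen, fibronectin and laminin receptors, was higher with some of its alpha partners. itgb1a was at 43.1 CPM in the lowest tumor, 54.4 at the median and 69.7 in the highest, against 20.4 and 23, and no tumor overlapped the pools. It was 2.57-fold higher (log2 1.36, SE 0.20, adjusted p = 8.62e-05). itgb1b.2 was low, at 0.482 to 1.09 CPM against 0.145 and 0.181, or 3 and 4 reads, in the pools (log2 fold change 2.31, SE 0.44, adjusted p = 0.000541), and its neighbour itgb1b.1, at 0.368 to 1.61 CPM against 0.242 and 0.498, was not called (log2 fold change 1.16, SE 0.55, adjusted p = 0.0825).

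A row outside the name rule also carried beta 1 reads, with a higher mean FPKM than itgb1a in both groups. CABZ01058720.1 (ENSDARG00000104484), a clone name that the reference table gives as ITGB1, was at 57.7 CPM in the lowest tumor, 65.9 at the median and 87 in the highest, against 10.3 and 11.4. The log2 change was 2.66 (SE 0.19, adjusted p = 2.52e-07), and its mean FPKM was 43.4 in the tumors and 7.29 in the controls, where itgb1a was at 16.1 and 6.66. The beta shares given above leave this row out.

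itga1, the alpha 1 chain of a collagen and laminin receptor, was at 48.6 CPM in the lowest tumor, 70.7 at the median and 94.3 in the highest, against 28.5 and 29.2. All tumors were above both pools (log2 fold change 1.30, SE 0.27, adjusted p = 0.00116). itga5, the alpha chain of the main fibronectin receptor, was at 7.27, 11.5 and 18.5 CPM in the same order, against 6.04 and 4.57 (log2 fold change 1.28, SE 0.34, adjusted p = 0.00509). With control pool 1 or 2 left out, the log2 fold change was 1.28 or 1.32 for itga1 and 1.49 or 1.09 for itga5.

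The copies of the alpha 2 collagen receptor chain were unlike each other. itga2.2 was low and higher in the tumors, at 0.614 to 2.8 CPM against 0.338 and 0.181 (log2 fold change 2.40, SE 0.59, adjusted p = 0.00345), and itga2.1 was at 0 to 0.548 CPM, too low for a test. itga2.3 was at 8.55 to 24.2 CPM in tumors 1, 2, 4, 5, 7 and 9, at 0.0828 to 0.333 in tumors 3, 6, 8 and 10, and at 1.21 and 1.09 in the pools. No tumor lay between these ranges, and both pools did. The fitted log2 fold change of 2.76 had an SE of 1.88 (adjusted p = 0.214), and the gene model is only 1713 bp long.

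Of the remaining collagen and matrix partners of beta 1, itga10 was lower, at 0.203 to 0.916 CPM against 1.3 and 1.49 (log2 fold change -1.70, SE 0.44, adjusted p = 0.00438). itga11a and itga11b had log2 fold changes of -0.36 (SE 0.37, adjusted p = 0.418) and -0.43 (SE 0.47, adjusted p = 0.443), each with 8 of 10 tumors below both pools. itga9, which pairs with beta 1 and binds tenascin C, was at 0.397 to 1.07 CPM against 0.676 and 0.725, and its log2 change of -0.07 (SE 0.37) changed sign with the processing.

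Among the laminin receptor genes, both tested alpha 6 genes were lower, whereas itga1 and itgb1a, described above, were higher. itga6a, an alpha 6 gene, whose chain pairs with beta 1 or beta 4, was at 1.38 CPM in the lowest tumor, 3.52 at the median and 8.88 in the highest, against 20 and 20.7. It was 5.1-fold lower (log2 -2.35, SE 0.44, adjusted p = 0.000494). Its paralog itga6b was at 0.522, 3.15 and 6.2 CPM in the same order, against 15 and 12.5 (log2 fold change -2.08, SE 0.50, adjusted p = 0.00263). The log2 fold change of itga6b was -1.95 without control pool 1 and -2.21 without control pool 2. Both genes were below both pools in all 10 tumors, and itga6l was too low for a test, at 0.0795 to 0.262 CPM against 0.338 and 0.362.

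itga3a and itga3b, the alpha 3 genes, were at 0.644 to 2.18 and 1.14 to 4.68 CPM and were not called (log2 fold changes -0.35, SE 0.41, and -0.95, SE 0.45, adjusted p = 0.472 and 0.0799). itgb4, the hemidesmosome partner of alpha 6, was at 2.9 CPM in the lowest tumor, 8.2 at the median and 18 in tumor 4, against 15.2 and 14.5. Only tumor 4 exceeded the pools, and the change was not called (log2 -0.84, SE 0.45, adjusted p = 0.117).

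Among the genes of RGD-binding receptors, itgb5, itgb8 and itga8 were lower, and itga5 and its partner itgb1a, described above, were higher. itgb5, the most abundant integrin beta gene of the control brains at 20.2 FPKM, was at 15.6 CPM in the lowest tumor, 19.5 at the median and 33.8 in the highest, against 67.4 and 71.7. It was 3.18-fold lower (log2 -1.67, SE 0.23, adjusted p = 4.96e-05), and its share of beta FPKM was 3.66% to 11.7% against 43.3% and 44.3%. itgb8, the chain that with alpha v releases latent TGF-beta, was at 3.28, 6.06 and 13.2 CPM, against 21.9 and 20.2 (log2 fold change -1.68, SE 0.34, adjusted p = 0.00083). Both were below both pools in all tumors. The log2 fold change of itgb8 was -1.62 without control pool 1 and -1.74 without control pool 2.

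itgav, the alpha v chain, was at 67.4 CPM in the lowest tumor, 73.4 at the median and 113 in the highest, against 103 and 104. Tumors 4 and 5 were above both pools and the other 8 below, and the change was not called (log2 -0.33, SE 0.19, adjusted p = 0.154). In the controls it was the most abundant alpha gene, at 21.6 FPKM, and its share of alpha FPKM was 44.7% and 45.5% there and 19.1% to 30% in the tumors. itga8, another RGD-binding alpha chain, which pairs with beta 1, was at 2.09 to 5.8 CPM with a median of 3.47 against 18.4 and 18.3 (log2 fold change -2.28, SE 0.30, adjusted p = 3.51e-05).

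Lowly expressed RGD receptor genes were not called. itgb6 was at 0.843 to 5.51 CPM against 1.01 and 1.31 (log2 fold change 1.25, SE 0.71), and itgb3b at 0.331 to 1.31 CPM against 0.338 and 0.589 (0.64, SE 0.54). itga2b, the alpha chain of platelets and fish thrombocytes, was at 0.595 to 4.48 CPM against 0.773 and 0.906 (log2 fold change 0.82, SE 0.65), and itgb3a was at 0 to 0.295 CPM and not tested. Adjusted p for the 3 tested genes was 0.144, 0.309 and 0.284 in edgeR.

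Markers of neurons and radial glia were low beside the integrin genes that fell. All 21 tested mature neuron markers were lower, with the sums given above, and 7 of 10 radial glia markers were lower, their sum being 1114 to 2701 CPM in the tumors and 6765 and 6721 in the pools. The part of these cells in the values of itga6a, itga6b, itga8, itgb5 and itgb8 was not tested.

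The genes that met the name rule without being receptor chains moved in different directions. itgb1bp1, whose product binds the beta 1 tail and restrains talin binding in mammals, was at 19.9 CPM in the lowest tumor, 23.9 at the median and 33.8 in the highest, against 14.3 and 13.4 (log2 fold change 0.85, SE 0.20, adjusted p = 0.0025). ITGB1BP2, or melusin, a chaperone known from heart and skeletal muscle of mammals, was at 0.332 to 2.17 CPM with a median of 1.72 against 8.21 and 9.51 (log2 fold change -2.59, SE 0.41, adjusted p = 0.000141). itgbl1 was at 1.05 to 4.6 CPM against 8.41 and 8.79 (log2 fold change -1.91, SE 0.40, adjusted p = 0.00111). Skeletal muscle markers summed to 5.18 to 9.41 CPM in the tumors and 7.34 and 7.2 in the pools. Of 6 tested markers 2 were lower, mylpfa (log2 fold change -3.11) and ckmb (-2.30). By edgeR 0 were higher (2 at an unadjusted p under 0.05, 0 by DESeq2 and 2 by limma with voom).

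Tumors differed more from each other than libraries of a tumor did. In the 17 members with a tumor mean of at least 10 CPM, the SD of log2 CPM between tumors was 0.21 (lamb1b) to 1.40 (lamb2), with a median of 0.43. The median absolute log2 difference between libraries a and b of a tumor was 0.04 to 0.17 for these genes, with a median of 0.08. The largest single difference between libraries was 1.1, for lamb2. The tumors with high lamb2 (2, 4 and 5) were all among those with high itga2.3, and tumor 8, the highest for lama4 and lama5, was low for itga2.3. Since itga2.3 was above both pools in 6 of the 10 tumors, such overlaps can arise by chance. They were picked from the values, and no relation between these genes was tested.

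**Figure D5:**
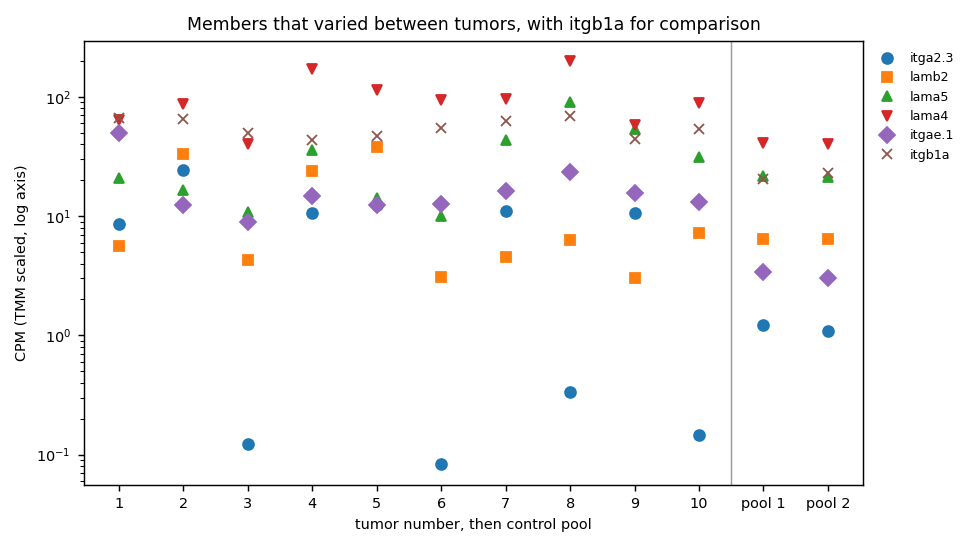
CPM on a log axis in tumors 1 to 10 and both control pools for genes that varied between tumors (itga2.3, lamb2, lama5, lama4 and itgae.1) and for itgb1a, which varied little. itga2.3 is at 8.55 to 24.2 in 6 tumors and at 0.0828 to 0.333 in the other 4, whereas itgb1a stays within 43.1 to 69.7.

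Basement membrane partners of the laminins were mostly not called, with 1 of 21 tested genes higher and 5 lower and a list median of -0.63 on the log2 scale. For this list and those that follow, the shares over all genes tested were 22.8% higher and 24.9% lower. The higher gene was col4a2, a type IV collagen chain, at 20.5 to 32.2 CPM against 16.9 and 16.5 (log2 fold change 0.67, SE 0.18, adjusted p = 0.00516). agrn, which encodes agrin, was at 35.4 to 192 CPM against 297 and 293 (log2 fold change -1.94, SE 0.38, adjusted p = 0.000712). fras1, frem2a and frem2b, whose products form the Fraser complex, had log2 fold changes of -1.97, -2.64 and -1.20, and sparc of -0.69. The nidogen genes and hspg2, perlecan, were not called.

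The dystroglycan complex and the enzymes that glycosylate it, the laminin receptors that are no integrins, had 7 of 21 tested genes lower (median log2 fold change -0.43) and 0 higher by edgeR, with 3 higher at an unadjusted p under 0.05 and 0 by DESeq2 or limma with voom. dag1, dystroglycan itself, was at 49.8 to 80.9 CPM against 107 and 102 (log2 fold change -0.64, SE 0.17, adjusted p = 0.00511). The others were the sarcoglycan genes sgca, sgcb and sgcd (-2.60, -0.70 and -1.86), the syntrophin gene sntb1 (-1.91) and the glycosylation genes tmem5 and ispd (-0.75 and -1.11, all log2 fold changes).

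Other ligands of integrins had 5 of 28 tested genes higher and 11 lower and a median of -0.41 on the log2 scale. The list was not limited to ligands: it counted nrros, for example, whose product presents a ligand and is not itself one. tnr, tenascin R of the perineuronal matrix and of oligodendrocytes, was at 873 to 1546 CPM against 55.3 and 55.4 (log2 fold change 4.41, SE 0.26, adjusted p = 6.26e-08). The others that rose were cyr61 (2.97), ctgfa (2.12), tgfb1a (1.73) and nrros (3.01), the last of which encodes a protein that presents latent TGF-beta on microglia in mice. The tenascin C rows tnc and TNC had log2 fold changes of -2.70 and -2.52, reln, the neuronal signal reelin, -2.26, and vcam1b, a ligand of alpha 4 integrins, -1.11.

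The machinery of integrin adhesion, a list of intracellular proteins and of surface proteins such as tetraspanins, had 23 of 59 tested genes higher and 12 lower. Its median was 0.62 on the log2 scale. Over all genes tested 22.8% were higher and 24.9% lower, and a difference from that share was not tested. ilk, integrin-linked kinase, was at 86.2 to 125 CPM against 27.1 and 25.9 (log2 fold change 1.91, SE 0.15, adjusted p = 5.16e-07), and its adaptor partners lims1 (1.11) and rsu1 (2.13) and the integrin activator fermt2 (1.97) were also higher. Related genes did not all rise: the parvin gene parvb was lower (-1.23), and parvaa, parvab, parvg, lims2, fermt1 and fermt3b were not called. Paralogs moved in opposite directions in several families: ptk2aa (1.55) and ptk2ab (-1.05), which encode focal adhesion kinase, and cd81a (2.03) and cd81b (-2.41), which encode a tetraspanin. Among the lower genes were tln2a (-1.96), a talin gene, vcla (-1.74), a vinculin gene, and actn1 (-1.63), an alpha-actinin gene, while tln1 was not called (log2 fold change 0.45, SE 0.32, adjusted p = 0.244).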

How the data were processed

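RNA of 10 tumors and 2 control pools gave 24 libraries. The authors deposited raw read counts per Ensembl gene without normalization, and FPKM values that they computed from those counts and exonic length. The labels name GSNAP, HTSeq and the GRCz10 build; the steps, with uniquely mapped reads, are stated for the larval libraries of the study, and whether counting used strand is not given in the sources used here, so reads of overlapping antisense genes cannot be told apart. Deposited fold changes and p-values of the authors' own comparison (DESeq2) were not used.

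Libraries a and b of a label were summed. Tumors were compared with control pools in R 4.3.3 with edgeR 4.0.16 (quasi-likelihood test, TMM scaling, filterByExpr, Benjamini-Hochberg adjustment over all genes tested), with calls needing adjusted p of 0.01 or less and 1.5-fold or more. The SE is the log2 fold change divided by the square root of the F statistic. FPKM of a sample is the mean of its libraries. Relations across tumors used 100000 permutations, two-sided, on log2(CPM + 0.1). Alternatives used DESeq2 1.42.0, limma 3.58.1 (voom, and log2(FPKM + 1) or log2(FPKM + 0.1)), other scalings and filters, single libraries, control libraries summed by letter and samples left out. The code was tested on simulated data.

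Named genes were every called member whose higher group averaged 10 CPM or more, the members highest in FPKM in each class, those that are no laminin or integrin, and their partners and paralogs; the others are given more briefly. Members and lists were chosen with earlier results of these data known. Gene names matched the reference name table by ID for 48 of 48 members, and the RefSeq table of GRCz12tu by symbol for 44. The paper states that tumors came from separate fish, that each control pool came from 3 adults and that libraries a and b were technical replicates. The p-values therefore rest on the spread between tumors and on 2 pools. The values of 1 member are not reported here. A level of 3 counts was taken as the floor, for counting error only.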

Additional observations from a re-analysis of the deposited data

Results flagged for a closer look

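In 9 of the 44 tested genes the highest tumor stood apart from the others on the CPM scale. Its gap to the next tumor, as a share of the range over the 10 tumors, exceeded Dixon's 95% critical value. Chance gives about 1 in 20 genes only where values are normally distributed, which was not examined here. The gaps were not computed on the log2 scale, so no excess over chance can be read from this count. Tumor 1 stood apart in itgae.1 at 50 CPM (next 23.3), itgam at 4.84 (next 1.64), itga11b at 5.6 (next 3.28) and lamc3 at 41.1 (next 26.2). Without it itgae.1 had a log2 fold change of 2.15 (edgeR adjusted p = 0.000114), itgam 0.30 (0.657), itga11b -0.67 (0.117) and lamc3 -1.40 (0.0012), so that lamc3 alone of the 4 changed its side of the threshold. Tumor 1 also had the highest summed pan-leukocyte markers. Across the 10 tumors that sum had r = 0.77 with itgae.1 (permutation p = 0.0065, adjusted p = 0.086; rho = 0.54, permutation p = 0.11; r = 0.87 without the 2 farthest tumors) and r = 0.62 with lamc3 (permutation p = 0.055, adjusted p = 0.23; rho = 0.55, permutation p = 0.1; r = 0.07 without them), and its relation to itgam and itga11b was not tested.

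Tumor 10 stood apart in itga2b at 4.48 CPM (next 1.8) and in itga10 at 0.916 (next 0.532). Tumor 4 stood apart in itgb4 at 18 CPM (next 9.9), and without it the log2 fold change of itgb4 was -1.04 (edgeR adjusted p = 0.0235). Tumor 2 stood apart in itga2.3 at 24.2 CPM (next 12.5) and tumor 9 in itga2.2 at 2.8 (next 1.76).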

How the results depend on the processing

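None of the 22 called genes changed direction in any alternative. Of them, 14 kept their call in all 13 settings with 12 samples, and 21 kept it without each tumor in turn (the exception being itgae.2). The median log2 fold change of all genes was 0.09 with TMM and 0.01 to 0.07 with other scalings. Laminin genes called higher went from 1 to 0 with glmTreat and log2(FPKM + 1). They went to 2 with voom and at adjusted p of 0.05 without a fold threshold (1 with each tumor left out). Laminin genes called lower went from 2 to 5 with voom and to 4 with log2(FPKM + 1), log2(FPKM + 0.1) and the 0.05 threshold (range 2 to 4 with a tumor left out). Integrin genes called higher went from 10 to 6 with log2(FPKM + 1) (range 9 to 10 with a tumor left out). Those called lower went from 7 to 10 with voom (7 with each tumor left out). Over all genes voom called 6265 higher and 6815 lower, against 4779 and 5221 in edgeR. Fits without a control pool have 1 control sample, assumed to vary like the tumors. The replicate numbers 1 and 2 are only names (correlation of deviations 0.01 and 0.02). A replicate block leaves tumors 3 to 10 alone in their blocks, so its fold changes rest on tumors 1 and 2 against the 2 pools. That fit gave 1 laminin gene higher and 2 lower, and 7 integrin genes higher (6 shared) and 5 lower (4 shared).

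Signs turned for uncalled genes: the lama5 log2 fold change with the block (-0.21), itga9 with library b (0.27), lamb1a without a filter (0.00), with library b (0.04) and with the block (0.28), and lamc1 with library a (0.02); the cause was not tested. With a sample left out, log2 fold changes ran from -0.20 to 0.05 for itga9, -0.10 to 0.07 for lamb1a and -0.10 to 0.04 for lamc1.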
